A study of Mus musculus with 22 samples.

Results

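The respiratory chain subunits described here are 45 genes of the nuclear genome that encode parts of complexes I to IV, and they were taken by name from a list. Of the 20129 genes with a RefSeq-identified probe on the array, these 45 comprise 29 subunits of complex I, 4 of complex II, 4 of complex III and 8 of complex IV. Ndufa4 carries a complex I name and is placed with complex IV, where it is known to belong. The fractions came from Transcriptome Tomography, in which serial slices through a brain are pooled by position into slabs and the RNA of each pool is hybridised to an array. The 22 fractions were cut from untreated male C57BL/6J brains, 1 mouse per plane: 10 coronal fractions (C1 to C10), 6 horizontal fractions (H1 to H6) and 6 sagittal fractions (S1 to S6). Titles give an age of 7 days and the age field gives 3 days. Each fraction had 1 array and no replicate, so a test along a series measures the scatter of single arrays around a smooth curve, and plane and animal cannot be told apart. S1 pooled slabs 1 and 2, S6 pooled slabs 7 to 9 and C10 pooled slabs 10 and 11.

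The respiratory chain of the inner mitochondrial membrane passes electrons from NADH through complex I and from succinate through complex II to ubiquinone, then through complex III and cytochrome c to complex IV, which reduces oxygen. Complexes I, III and IV pump protons, and ATP synthase uses the resulting gradient. Most subunits are encoded in the nucleus, a small core of complexes I, III and IV is encoded in the mitochondrial genome, and neurons depend heavily on this pathway for ion pumping and synaptic transmission.

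Promoters of several subunits are printed to show the letters known from respiratory chain promoters. A link between these letters and the measured levels was not tested. NRF1, the ETS factor GABP and YY1 are known regulators of nuclear respiratory genes. Of the 45 genes, 37 had a promoter in the RefSeq table of build GRCm38.p6. Ndufb6 and Ndufa7 were the subunits named for their position tests or their likeness to the shared profile whose printed stretch held such a motif. Cox6a1, Ndufa6, Ndufa8 and Sdhb were added after the values were seen, as the subunits with the NRF1 letters there. Ndufb6 and Ndufa7 hold the ETS core there and not the NRF1 letters. The 250 bases before each start are given 5′ to 3′ on the strand of the gene, with the NRF1 letters GCATGCGC (with the GC before them that makes the palindromic form in Cox6a1) and the ETS core CGGAAG, read on either strand, in capitals. Ndufb6 lies at chr4:40279422-40279671 (minus strand), Ndufa7 at chr17:33824395-33824644 (plus), Cox6a1 at chr5:115348959-115349208 (minus), Ndufa6 at chr15:82354292-82354541 (minus), Ndufa8 at chr2:36049339-36049588 (minus) and Sdhb at chr4:140961021-140961270 (plus).
Ndufb6: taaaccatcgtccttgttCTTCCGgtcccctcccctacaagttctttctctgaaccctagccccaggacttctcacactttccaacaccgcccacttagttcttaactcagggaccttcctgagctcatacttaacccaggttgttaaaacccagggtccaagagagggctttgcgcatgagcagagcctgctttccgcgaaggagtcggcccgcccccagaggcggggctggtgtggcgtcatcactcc
Ndufa7: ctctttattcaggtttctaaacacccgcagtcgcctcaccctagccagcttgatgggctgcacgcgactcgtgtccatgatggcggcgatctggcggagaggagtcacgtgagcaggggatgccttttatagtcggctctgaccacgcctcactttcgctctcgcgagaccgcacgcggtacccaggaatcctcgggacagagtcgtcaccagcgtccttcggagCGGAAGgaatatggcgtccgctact
Cox6a1: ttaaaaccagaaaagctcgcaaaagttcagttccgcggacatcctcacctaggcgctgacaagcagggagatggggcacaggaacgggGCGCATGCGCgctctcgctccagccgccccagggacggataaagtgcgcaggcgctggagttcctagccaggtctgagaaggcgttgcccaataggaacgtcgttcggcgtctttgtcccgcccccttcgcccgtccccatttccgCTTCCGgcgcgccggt
Ndufa6: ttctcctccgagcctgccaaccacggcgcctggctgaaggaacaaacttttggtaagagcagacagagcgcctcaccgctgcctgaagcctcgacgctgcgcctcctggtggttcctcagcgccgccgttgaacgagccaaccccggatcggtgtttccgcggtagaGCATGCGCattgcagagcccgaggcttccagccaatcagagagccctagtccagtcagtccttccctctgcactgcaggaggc
Ndufa8: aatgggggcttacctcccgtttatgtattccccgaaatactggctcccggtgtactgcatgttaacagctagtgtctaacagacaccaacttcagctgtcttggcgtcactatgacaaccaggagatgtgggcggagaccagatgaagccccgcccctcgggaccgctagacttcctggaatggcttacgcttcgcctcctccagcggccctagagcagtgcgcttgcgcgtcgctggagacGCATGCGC
Sdhb: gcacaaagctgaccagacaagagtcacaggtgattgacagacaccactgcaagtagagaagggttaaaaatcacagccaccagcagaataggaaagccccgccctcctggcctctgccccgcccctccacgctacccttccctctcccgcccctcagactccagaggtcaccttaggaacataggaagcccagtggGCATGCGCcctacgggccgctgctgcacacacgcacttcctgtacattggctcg

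Over the whole windows, which run on to 50 bases past the start, GCATGCGC stood in 13.5% of the 37 subunit genes and in 3.05% of all 27025 genes of the table, searched on both strands. Its palindromic form, which has GC before these letters, stood in 5.41% and 1.07%. The ETS core CGGAAG stood in 32.4% and 18.8%, and the YY1 letters AAGATGGCG in 13.5% and 1.64%. The SP1 box GGGCGG stood in 40.5% and 38.2%, CCAAT in 29.7% and 41.1%, and the ERR letters TCAAGGTCA in 1 subunit gene and in 126 of the 27025. The subunit promoters had a median GC content of 59.3% and a median of 20 CpG sites, against 52.7% and 7 over all promoters. Every motif searched contains a CpG except CCAAT and the ERR letters. A match is a description of letters and not a binding site.

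Every subunit was measured well above background on all 22 arrays, where this held for 65.2% of the 39602 probes tested. Levels are log2 processed signal minus the 75th percentile of the array, so a level of 0 is the brightness at that percentile. The median level of a subunit over the fractions ran from 3.83 (Ndufa10) to 9.31 (Cox6a1), against a median of -1.74 over all probes tested. Probe brightness also depends on the probe, so subunits are compared below only by their changes.

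The spread of the subunits over the fractions differed between the series. Their median fitted range was below that of all probes tested in the coronal and horizontal series and above it in the sagittal series, at 1.26 against 0.92 log2 units. The median SD of a subunit over the 22 fractions was 0.362 log2 units, against 0.524 over all probes tested and 0.401 over the 25808 probes well above background everywhere. Ndufb2, an accessory subunit of complex I, had the highest SD at 0.637, followed by Ndufa4 at 0.629 and Cox6c, a complex IV subunit, at 0.611. Ndufa10, an accessory subunit of complex I, had the lowest at 0.160, with Sdha, the flavoprotein that oxidises succinate, at 0.161 and the complex III core protein Uqcrc2 at 0.172. For scale, spots of 1 probe printed 10 times per array had a median SD of 0.0646.

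**Figure D1:**
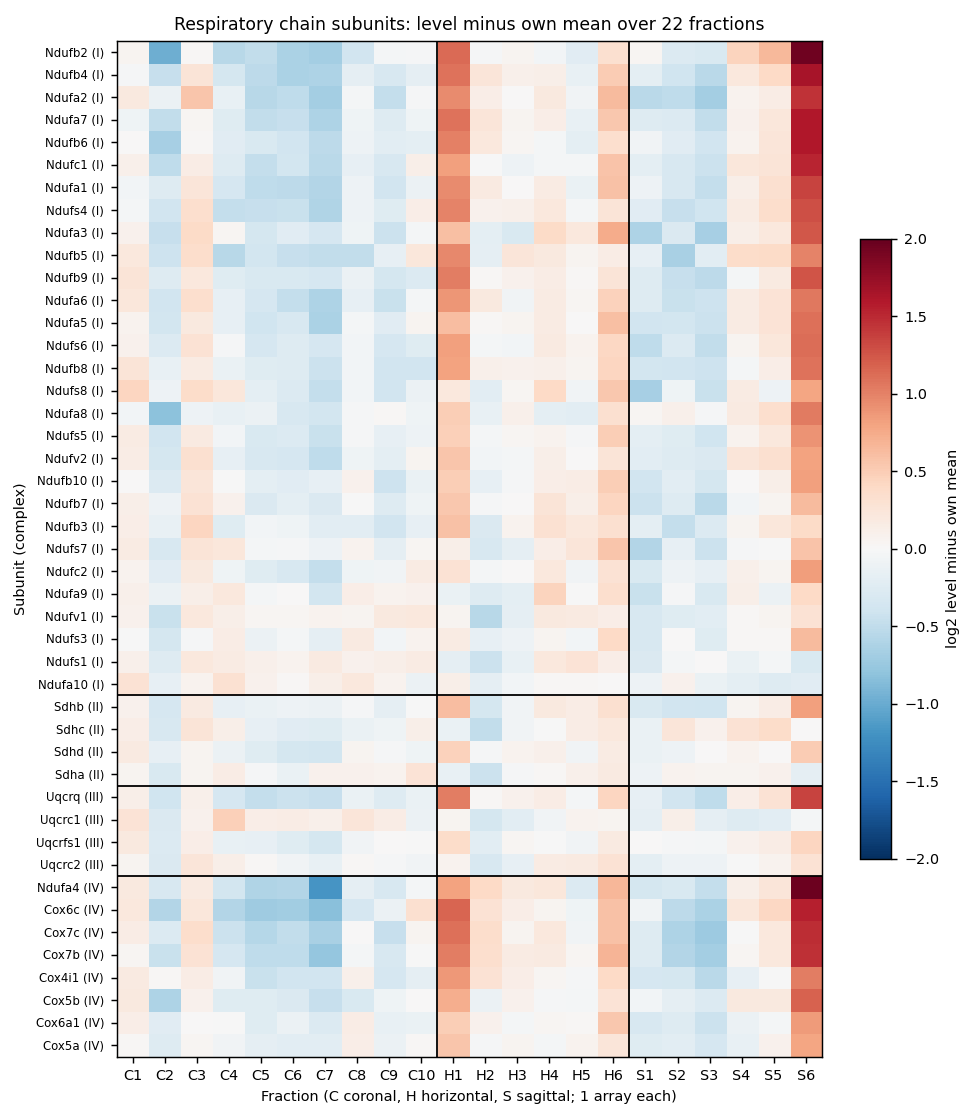
Level of each of the 45 subunits minus its own mean over the 22 fractions (colour, log2 units), with 1 array per column and subunits grouped by complex and ordered by SD within it. S6 is the highest fraction of 38 subunits, H1 is raised in most, and Sdha, Ndufs1, Ndufa10 and Uqcrc1 lie below their own means in S6.

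A profile shared by most subunits was highest in S6 and in both outer horizontal fractions, and S1, the other outer sagittal fraction, was low at -0.26. The mean deviation of the 45 subunits from their own means was 0.92 log2 units in S6, 0.59 in H1 and 0.38 in H6. It was lowest in C7, at -0.39, with S3 at -0.35 and C2 at -0.34 close to it. S6 was the highest of all 22 fractions for 38 of 45 subunits, and C7 was the lowest for 15. In H6, all 45 subunits were above their own means. In H1 and in S6, 41 were. How many of all probes had these patterns was not counted. The 3580 probes at least as bright as the dimmest subunit had a median deviation of 0.48 in S6, 0.33 in H1 and 0.22 in H6. With quantile normalization, and also without H1 and S6, the mean profile of the subunits had a smaller range.

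**Figure D2:**
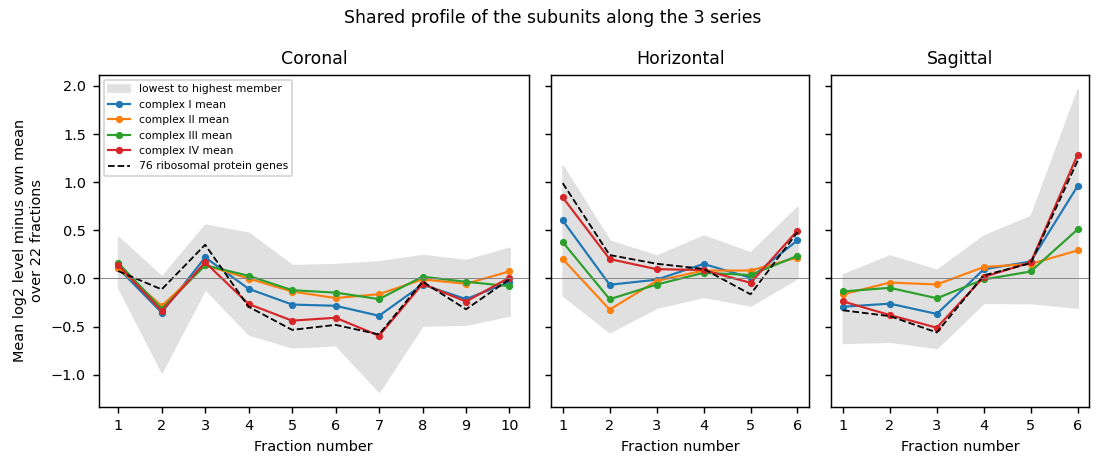
Mean level of the subunits of each complex minus their own means over 22 fractions (y axis, log2 units) along the fraction numbers of each series. The grey band runs from the lowest to the highest subunit and the dashed line is the mean of 76 ribosomal protein genes. Complex IV reaches 1.29 in S6 and complex II 0.29.

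Among the 990 pairs of subunits the median Pearson r over the 22 fractions was 0.813, and 42.2% of pairs exceeded an r of 0.85. Over all pairs of the 39602 probes tested, 1.91% exceeded it and the median r was close to 0. These r describe 22 arrays that every pair shares, and neighbouring fractions of 1 brain are not independent. Leaving out H1 and S6 brought the median to 0.683 and the share above 0.85 to 19.6%, against 1.98% of all pairs. With quantile normalization of all 22 arrays the median r was 0.282. Within the coronal series alone, where neither array takes part, the median r was 0.702 over 10 fractions. Pairs within complex IV had a median r of 0.922 and pairs within complex I 0.822, while pairs within complex III had 0.506 and within complex II 0.283. Without H1 and S6 the values were 0.814 for complex IV, 0.718 for complex I, 0.497 for complex III and 0.500 for complex II, so complex II was no longer lowest.

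Uqcrq, a small subunit of complex III, Ndufa5 and Ndufs5, accessory subunits of complex I, were most like the mean of the other 44 subunits, with r of 0.975, 0.984 and 0.987. Ndufs1, the largest iron-sulphur subunit of complex I, was least like it, with r of -0.191. Ndufa10 had -0.155 and Sdha -0.068. Without H1 and S6 these r were 0.216 for Ndufs1, -0.037 for Ndufa10 and 0.318 for Sdha, so the sign turned for Ndufs1 and Sdha and Ndufa10 was then the least like the others. Ndufs1 had levels of 4.48, 4.72, 4.77, 4.63, 4.72 and 4.46 from S1 to S6. Its S6 value lay at the low end of a flat series, below the values of the other 5 fractions.

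Whether subunits changed with position was tested in 1 limma fit over all 22 arrays, with a linear and a quadratic term of slab position for each series. A probe was called at a Benjamini-Hochberg adjusted p below 0.05 over the 39602 probes. In the sagittal series the linear term was called for 33 of 45 subunits, and all 33 rose from S1 to S6. The spread behind these calls came from all 3 mice. With the 6 sagittal arrays fitted alone, limma called 0 of 45 subunits and 0% of all probes, and 39 subunits had an unadjusted p below 0.05. With no quadratic terms, in a fit that still used all 22 arrays, limma called 0 of 45 subunits and 0.0101% of all probes. There 38 subunits had an unadjusted p below 0.05, and the reason for the lost calls was not tested. In the main fit, 10.2% of all probes were called in the sagittal linear test and 7.77% were called and rose. By complex, 23 of 29 subunits rose in complex I, 1 of 4 in complex II, 1 of 4 in complex III and 8 of 8 in complex IV. The complexes also differed in brightness, with median levels of 6.21, 5.09, 5.51 and 7.31 in the same order. Across the 45 subunits, median level had an r of 0.587 with the level in S6 minus the mean of S1 to S5. The part of brightness in the differences between complexes and between subunits was not tested.

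The step to the last fraction was the widest. The mean deviation of the subunits was -0.35 in S3, 0.07 in S4, 0.16 in S5 and 0.92 in S6. S6 exceeded each of S1 to S5 for 40 of 45 subunits, against 33.8% of all probes tested and 63.6% of the 3580 probes at least as bright as the dimmest subunit. The median subunit was 2.08-fold above the mean of S1 to S5 in S6, and this difference was 1.05 log2 units against 0.04 over all probes tested. Without S6 no subunit and no probe was called by limma, and 3 subunits had an unadjusted p below 0.05. In that fit 43 of 45 had a positive linear term. The median linear change of the subunits was then 0.50 log2 units from S1 to S5, against 1.25 over the longer span from S1 to S6. S6 pooled 3 slabs and is 1 array, so its level has no replicate check.

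In complex IV, which transfers electrons from cytochrome c to oxygen, Ndufa4 changed most. Its levels from S1 to S6 were 5.91, 5.96, 5.80, 6.38, 6.51 and 8.23. The first 3 fractions were alike, S4 and S5 were higher, and S6 stood 1.72 above the next. The fitted linear change was 2.22 ± 0.38 log2 units (SE, a slope over 6 arrays with the spread taken from 22; limma adjusted p = 0.00396). Cox7c, a small membrane subunit, had levels of 5.96, 5.61, 5.50, 6.21, 6.43 and 7.69, and a change of 1.86 ± 0.34 (SE; limma adjusted p = 0.00476). Its second probe, of a similar median level (6.06), gave 1.42 ± 0.60 and was not called (limma adjusted p = 0.158), and a dim probe gave 1.77 ± 0.52 (limma adjusted p = 0.0432). Cox6c had levels of 7.39, 6.94, 6.83, 7.68, 7.88 and 9.01, and a change of 1.84 ± 0.36 (SE; limma adjusted p = 0.00607). Cox7c and Cox6c both dipped at S3 before the rise. The other 5 subunits of the complex (Cox4i1, Cox5a, Cox5b, Cox6a1 and Cox7b) changed by between 1.00 and 1.84, with limma adjusted p between 0.00447 and 0.0137.

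In complex I, the NADH dehydrogenase, accessory subunits led. Ndufb2 had levels of 6.06, 5.74, 5.72, 6.47, 6.67 and 7.97 from S1 to S6, and a linear change of 2.05 ± 0.37 (SE; limma adjusted p = 0.00475). Ndufa2 had levels of 6.57, 6.59, 6.41, 7.17, 7.25 and 8.54, and a change of 1.99 ± 0.37 (SE; limma adjusted p = 0.00495). Ndufb4 had levels of 6.94, 6.73, 6.59, 7.35, 7.52 and 8.79, and a change of 1.95 ± 0.32 (SE; limma adjusted p = 0.00379). All 3 were low in S1 to S3, higher in S4 and S5 and highest in S6, with no overlap between S6 and the rest. Among the conserved core subunits, Ndufs8, Ndufv2, Ndufs7 and Ndufs3 rose by 1.26, 1.13, 1.06 and 0.83, whereas the change was 0.65 ± 0.28 for the NADH-binding subunit Ndufv1 (SE; limma adjusted p = 0.175) and -0.05 ± 0.22 for Ndufs1 (SE; limma adjusted p = 0.909). Ndufa8, Ndufa9, Ndufa10 and Ndufb3 were the remaining complex I subunits that were not called, and Ndufa8 missed narrowly at a limma adjusted p of 0.0558.

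In complex II, which also belongs to the tricarboxylic acid cycle, Sdhb was called. This iron-sulphur subunit lay between 6.71 and 7.25 in S1 to S5 and at 7.92 in S6, and changed by 1.19 ± 0.28 (SE; limma adjusted p = 0.0143). Its other probe gave 0.83 ± 0.30 with an adjusted p of 0.0948. The catalytic Sdha had levels of 4.56, 4.73, 4.70, 4.71, 4.74 and 4.47, a series with S6 at its low end, and its change was -0.08 ± 0.21 (SE; limma adjusted p = 0.83). For the membrane anchors Sdhc and Sdhd the change was 0.17 and 0.58, with limma adjusted p of 0.714 and 0.113.

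In complex III, the cytochrome bc1 complex, Uqcrq was called. It had levels of 7.68, 7.46, 7.35, 7.98, 8.13 and 9.20 and a change of 1.61 ± 0.28 (SE; limma adjusted p = 0.00409). The core proteins Uqcrc1 and Uqcrc2 and the Rieske iron-sulphur protein Uqcrfs1 had changes of -0.02, 0.48 and 0.44, with limma adjusted p of 0.975, 0.207 and 0.246. Uqcrc2 lay between 5.50 and 5.78 in S1 to S5 and at 6.00 in S6.

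**Figure D3:**
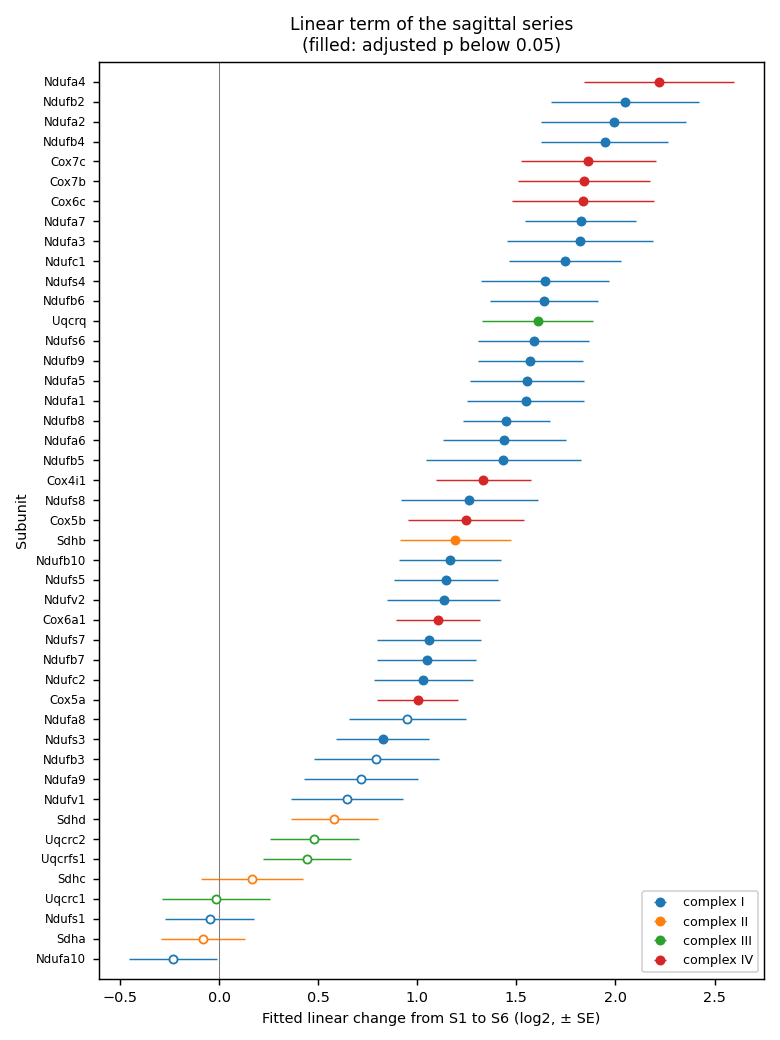
Fitted linear change from S1 to S6 of each subunit in log2 units (points, x axis) with its standard error (bars), coloured by complex. Filled points are the 33 subunits with a limma adjusted p below 0.05, and the open points at the lower end include 3 of 4 subunits each of complexes II and III.

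The quadratic term of the sagittal series was called for 0 of 45 subunits by limma, at a background of 0.0303%. The unadjusted p was below 0.05 for 20 subunits, and the lowest adjusted p was 0.0757.

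The sagittal count differed between scalings. With quantile normalization, which gives every array the same distribution, 2 of 45 subunits were called (Ndufa4 and Ndufb6), a share near the 4.73% of all probes called in that setting, and the median change of the subunits was 0.30 log2 units with 35 of 45 positive, while the median of complex II and of complex III turned to -0.06 and -0.07. With each array centred on its median, 19 subunits were called, all rising, against 4.25% of all probes.

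The upper end of the arrays moved with the subunits. The 99th percentile of all probes was 8.33 in S6 and 8.06 in H1, against 6.86 to 7.57 in the other 20 arrays, and over the 22 arrays its r with the mean deviation of the subunits was 0.929. The 75th percentile intensity used for scaling was lowest in S6, at 260, and next lowest in H1, at 268, in a range that reached 604. Among the 3580 probes whose median level was at least that of the dimmest subunit, 34.7% were called in the sagittal linear test, against 73.3% of the subunits, and these probes had a median S6 difference of 0.53 against 1.05 for the subunits. Their part in the result was not tested.

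**Figure D4:**
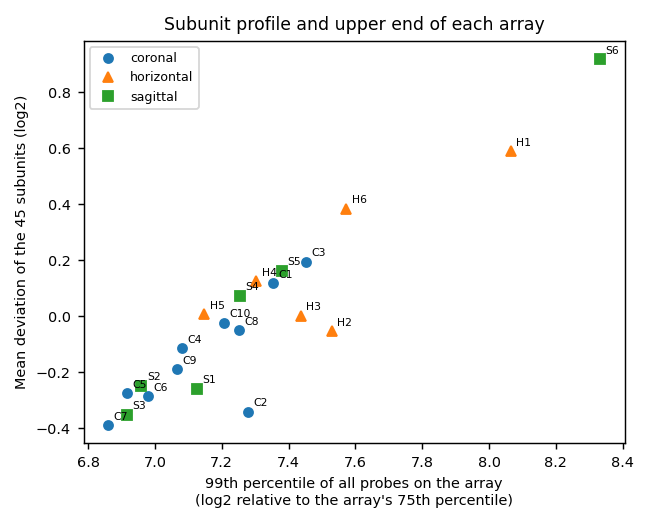
Mean deviation of the 45 subunits from their own means (y axis, log2 units) against the 99th percentile of all probes on the same array (x axis, log2 relative to the 75th percentile), with 1 point per fraction. S6 and H1 are highest on both axes.

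Markers of other cells also moved in S6. All 6 neutrophil markers were higher in S6 than in each of S1 to S5, 3 of them were called as rising, and 5 of 6 were well above background there. Over all probes, 33.8% were higher in S6 than in each of S1 to S5 and 7.77% were called and rose. The summed level of that list was 4.03 in S6 and between -1.21 and 0.68 in S1 to S5, and in the horizontal series it was highest in H1, at 3.00. The 6 red blood cell markers had a summed level of 8.81 in S6 against 6.90 to 8.00 in S1 to S5, with 3 called, and 9.11 in H1. The 6 endothelial markers had 6.94 against 5.22 to 5.79, with 2 called. Choroid plexus markers had 7.41 against 6.32 to 7.23 and skeletal muscle markers 1.83 against 1.13 to 1.70, with 0 called in each list. The summed levels of the neuron, astrocyte, microglia and oligodendrocyte markers, 6 each, lay in S6 within their ranges in S1 to S5. They were 9.13 for neurons (8.84 to 9.46 in S1 to S5), 6.28 for astrocytes (5.84 to 6.53), 5.60 for microglia (5.26 to 5.97) and 4.79 for oligodendrocytes (4.21 to 7.04). The median S6 difference of single markers was -0.28, -0.21, -0.17 and -1.32 in the same order, and limma called none of them, with an unadjusted p below 0.05 for 1, 0, 1 and 1. In pooled tissue, more cells of a type and more RNA per cell cannot be told apart, and the part of these cells in the subunit values was not tested.

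A further list held 17 genes of complexes I to IV, with cytochrome c (Cycs) counted among them. In the sagittal linear test, 14 of these 17 rose, as did 9 of 15 ATP synthase subunits. The background was 7.77% of all probes called and rising, and 34.7% of the 3580 bright probes called. Uqcrh, the hinge protein of complex III, lay between 7.13 and 8.01 in S1 to S5 and at 9.09 in S6, with a change of 1.82 ± 0.34 (SE; limma adjusted p = 0.00543). Ndufab1, the acyl carrier protein of complex I, changed by 1.21 ± 0.37 (SE; limma adjusted p = 0.049). Atp5e, the epsilon subunit of ATP synthase, changed by 2.21 ± 0.30 (SE; limma adjusted p = 0.00368) and Atp5j, coupling factor 6, by 1.17 ± 0.31 (SE; limma adjusted p = 0.0253). Of 37 assembly factors tested, 14 rose and 2 fell, when 2.44% of all probes were called and fell.

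None of 13 tricarboxylic acid cycle enzymes and none of 16 glycolytic enzymes was called by limma in the sagittal linear test, and 4 and 3 of them had an unadjusted p below 0.05. Over all probes 10.2% were called, and over the 3580 bright probes, which include those of 10 of the 13 and 14 of the 16 enzymes, 34.7% were. Cs, the citrate synthase that opens the cycle, lay between 6.44 and 6.65 in S1 to S5 and at 5.79 in S6, its lowest fraction of 22, and its change was -0.68 ± 0.26 (SE; limma adjusted p = 0.121). The median S6 difference was -0.03 log2 units for the cycle enzymes and -0.11 for the glycolytic enzymes. Of 14 regulators of mitochondrial biogenesis 1 was called, Yy1, which rose, a share near the background of 7.77%. With quantile normalization, where 4.73% of all probes were called, 3 of 13 cycle enzymes were called and fell. In that setting 2 of 15 ATP synthase subunits and 2 of the 17 genes of the further list were called and rose. None of the 16 glycolytic enzymes was called there, with a median change of -0.75 and 0 of 16 positive. The median change of the cycle enzymes was -0.42, with 2 of 13 positive. Of the 37 assembly factors 11 were called in that setting, 1 of them falling, with a median change of 0.63. In a list chosen after the values were seen, for which no test is given, 76 ribosomal protein genes had a median S6 difference of 1.37, and their mean profile over the 22 fractions had an r of 0.954 with that of the subunits.

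**Figure D5:**
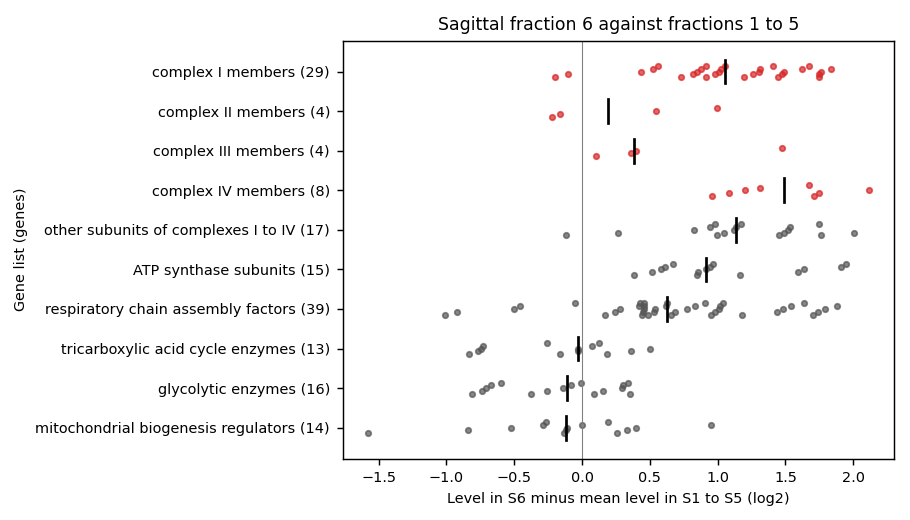
Level in S6 minus the mean level in S1 to S5 for each gene (points, x axis, log2 units) of the subunit lists (red) and of other metabolic lists (grey), with the list median as a black bar. Medians are 1.49 for complex IV and 0.91 for ATP synthase, and close to 0 for cycle and glycolytic enzymes.

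Along the coronal series, 1 of 45 subunits was called, at a background of 19.8% of probes. Markers place this series from hindbrain to forebrain: 6 of 6 hindbrain markers fell and 6 of 6 forebrain markers rose from C1 to C10, when 7.44% of all probes were called with a falling and 12.4% with a rising linear term. Cox6c was the called subunit (limma adjusted p = 0.0466), and the call was lost in 26 of 34 alternative settings, with an adjusted p of up to 0.116 when 1 fraction was left out. Its levels had a lowest value of 6.62 in C7, a median of 7.00 and a highest value of 7.78 in C10, and C1 and C3 were at 7.68 and 7.69. C2, at 6.87, was as low as the middle of the series, and the fitted range was 0.97 log2 units. Ndufb8, an accessory subunit of complex I, ran from 6.77 in C7 to 7.46 in C1 with a median of 7.01 (limma adjusted p = 0.0807). Ndufa4 ran from 5.10 in C7 to 6.46 in C1 with a median of 5.95 (limma adjusted p = 0.106).

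The other subunits had fitted coronal ranges between 0.09 and 0.74 log2 units, and the median over the 45 was 0.33 against 0.99 over all probes tested. The quadratic term was positive for 41 of 45, that is, lower in the middle than at the ends. Against their own means over all 22 fractions, 40 subunits were lower in C7 and 43 were higher in C3. C2 was below its neighbours C1 and C3, with 44 of 45 subunits under their own means. The share of all probes with these coronal patterns was not counted. The 3580 probes at least as bright as the dimmest subunit had median deviations of -0.18 in C7, 0.16 in C3 and -0.31 in C2. C2 is 1 of 7 arrays whose spike-in dose response was out of the accepted range per the file headers (with C1, H1, H2, H3, S1 and S3), and it was the only array on its slide. Ndufs1 had its lowest coronal level there, at 4.51, when its other coronal values lay between 4.83 and 4.98. The part of the array in these values was not tested.

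Along the horizontal series, 1 of 45 subunits was called, at a background of 6.57%. Of 6 hypothalamus markers, 4 rose toward H6, when 3.95% of all probes were called and rose. Ndufb6, an accessory subunit of complex I, was the called subunit (limma adjusted p = 0.0461), with levels of 6.80, 6.01, 5.84, 5.76, 5.60 and 6.13 from H1 to H6. It fell from H1 to H5 and was higher again in H6. The call was lost in 25 of 34 alternative settings, with an adjusted p of up to 0.425 when 1 fraction was left out. Ndufa7, also of complex I, had levels of 8.11, 7.27, 7.08, 7.17, 6.89 and 7.56 (limma adjusted p = 0.0514). Cox4i1, subunit 4 of complex IV, had levels of 9.11, 8.53, 8.37, 8.27, 8.22 and 8.64 (limma adjusted p = 0.0628). Both had their highest value in H1 and their next highest in H6, with H2 to H5 lower.

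Higher values at both horizontal ends were common to the subunits. H1 exceeded H2 to H5 for 36 of 45 and H6 for 39 of 45, and the quadratic term was positive for 44. The share of all probes with these patterns was not counted. The 3580 probes at least as bright as the dimmest subunit had a median deviation of 0.33 in H1 and 0.22 in H6. Over all probes tested it was 0.26 and -0.05. Markers of other cells differed there as well. In H6 the mean deviation was 1.11 for neutrophil, 0.93 for red blood cell, 0.92 for microglia and 0.92 for oligodendrocyte markers, and in H1 it was 1.72, 1.23, -0.50 and -2.31. Their part in the subunit values was not tested. In complex IV, H1 and H6 each exceeded H2 to H5 for all 8 subunits. H2 was the lowest of all 22 fractions for 6 subunits, among them Sdha at 4.22 and Ndufs1 at 4.33. The fitted range had a median of 0.63 log2 units over the subunits and 0.99 over all probes tested.

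Of the tissue-restricted isoforms of the chain 8 were on the array, and their median SD over the fractions was 0.529, near the 0.524 of all probes tested. Cox6a2, the heart and muscle form of complex IV subunit 6a, was called in the coronal series (limma adjusted p = 0.000542). It was lowest in C1, at -0.33, and highest there in C6, at 3.11, with 0.91 in C10. Cox6b2, the testis form of subunit 6b, ran the other way, from 2.04 in C1 to -0.01 in C9, and was called (limma adjusted p = 0.00804). In the sagittal series it changed by 1.28 ± 0.38 (SE; limma adjusted p = 0.0447). Cox7a1, the muscle form of subunit 7a, rose by 1.70 ± 0.35 in the sagittal series (SE; limma adjusted p = 0.00708) and was highest in H6, at 3.08. Cox7b2 was called in the horizontal series (limma adjusted p = 0.0377), at levels between -3.80 and -2.24 over the 22 fractions.

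Cox4i2, Ndufa4l2 and Cox8b were called in none of the 4 tests, and Cox8b was well above background on 19 arrays. Cox8c was well above background on 0 of 22 arrays and was not tested. Of the assembly factors, Ttc19, which acts on complex III, had the lowest coronal adjusted p at 0.0163 and ranged from 2.02 in C2 to 3.37 in C6, and Tmem126b, which acts on complex I, had 0.0397 and ranged from -0.54 in C9 to 0.49 in C3. Suclg2, a subunit of succinyl-CoA synthetase, was higher in C1 than elsewhere (limma adjusted p = 0.0101), and Cs was highest in C7, at 7.05 (limma adjusted p = 0.0526). Of the regulators, Pprc1, a coactivator, was highest in C9 and lowest in C3 (limma adjusted p = 0.00632), and Polrmt, the mitochondrial RNA polymerase, was highest in C9 and lowest in C2 (limma adjusted p = 0.0364). The glycolytic enzymes Aldoc and Hk1 were called as well, with limma adjusted p of 0.00854 and 0.0154, and were highest in C1 and in C6.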

How the data were processed

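Total RNA of 22 brain fractions was labelled with Cy3 and hybridised to Agilent SurePrint G3 Mouse arrays. Per the file headers, the authors used Feature Extraction 10.10.1.1 to obtain background-subtracted intensities in linear units, and the array design used mm9. The deposited table of log2 values was an alternative, since its values for 47478 matched probes all lay within 0.02 of those computed on the main scale below. No column of it was unused.

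Control and outlier spots were left out, no spot was saturated, and the spots of a probe were averaged as log2 values for 55600 probes. The main scale was log2 intensity minus the array's 75th percentile. A probe was tested where it was well above background on at least 1 array of every series (39602 probes). A subunit was read from its RefSeq-identified probe with the highest median. Of 28087 RefSeq probes, 26553 matched a gene. The 8 subunits with further probes were also read as the mean of them. The files used give no probe sequences, so cross-hybridisation to near-identical copies was not examined. The mitochondrially encoded subunits are not analysed here.

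Groups were the section planes of the labels, and slab midpoints were the positions. The labels give slabs of 500 µm, the methods of the study a thicker fraction, and neither says which end is fraction 1. limma 3.58.1 in R 4.3.3 fitted a mean, a linear and a quadratic term per series over all arrays (13 residual degrees of freedom), with lmFit, eBayes and Benjamini-Hochberg adjustment. The coronal and horizontal tests were F tests of both terms, and the sagittal terms were tested singly. Linear changes are from the first to the last fraction. Tested on simulated data over 39602 probes with 200 changed by 8 residual SDs, the fit recovered 94% (coronal), 82% (horizontal), 92% (sagittal linear) and 98.5% (sagittal quadratic). Tables and figures were made with Python 3.11.15, numpy 2.4.6, pandas 2.3.3 and matplotlib 3.10.9.

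The subunits and the other gene lists were chosen with earlier results of these data known. Described in full are, for each of 3 position tests, the called subunits (at most the 6 of widest fitted range in each direction, or the 3 of lowest adjusted p where fewer than 3 were called), the 3 highest and 3 lowest in SD and in r with the mean of the others, the 2 genes of lowest coronal adjusted p in each other list, and all tissue-restricted isoforms. Alternatives were the scaling, the background correction, the spike-in probe, the slide, the probe filter, the terms fitted, the probe per gene and leaving out each fraction. The normexp correction (offset 50) used median spot and background signals, as no mean signal was given. Arrays have no read depth; precision rests on how many arrays there were.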

Additional observations from a re-analysis of the deposited data

Results flagged for a closer look

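Within each series, a fraction was looked at again where its gap to the nearest other fraction, divided by the range of the series, passed Dixon's 95% critical value, for the mean profiles and the subunits described in full (66 series in all). Chance alone gives about 1 in 20. For 5 subunits sagittal fraction 6 lay far above the others: the ratio was 0.706 for Ndufa4 (level 8.23), 0.689 for Ndufb6 (7.39), 0.659 for Ndufa7 (8.63), 0.658 for Cox4i1 (9.27) and 0.644 for Ndufb8 (8.30). For Ndufs1 coronal fraction 2 lay far below the other coronal fractions, at 4.51, with a ratio of 0.692.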

How the results depend on the processing

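The coronal count of 1 subunit became 0 with each array centred on its median, with quantile normalization, with the spike-in covariate, with the slide as a block, with the series fitted alone, with no filter on dim probes and with the linear term alone. In those settings 14.4%, 16.8%, 10.9%, 4.03%, 1.61%, 11.8% and 7.13% of the probes tested were called, in the order given. The count ran from 0 to 3 when 1 fraction was left out (3 without C8, where 25.9% of all probes were called, and 0 for 18 of 22). The horizontal count of 1 became 0 with median centring, quantile normalization, the spike-in covariate, only arrays in spike-in range, the series alone, no filter and the linear term alone. In those settings 3.10%, 8.14%, 0.096%, 0.033%, 0%, 2.67% and 0.518% of the probes tested were called, in the order given. The count became 4 with the slide as a block and 8 among probes well above background on all arrays, where 13.5% and 16.2% of the probes tested were called. It ran from 0 to 10 with 1 fraction left out, with 10 without C2, 7 without C3, 3 without C8 (16.5%, 9.14% and 8.54% of all probes), 2 without C1 or C10 and 0 for 17 of 22. The sagittal linear count of 33 became 19 with median centring, 22 with the spike-in covariate, 28 with only arrays in spike-in range, 2 with quantile normalization and 0 with the series fitted alone or the linear term alone, where 39 and 38 subunits had an unadjusted limma p below 0.05. In those settings 4.25%, 6.38%, 8.67%, 4.73%, 0% and 0.0101% of all probes were called, in the order given. The count ran from 0 to 34 with 1 fraction left out, with 0 only without S6, where 0% of all probes were called, and at least 30 otherwise. The slide gave 34, with 11.9% of all probes called, and all sagittal arrays share 1 slide. The sagittal quadratic count of 0 became 1 with the slide and 2 among probes well above background on all arrays, where 0.447% and 2.07% of the probes tested were called. With 1 fraction left out it ran from 0 to 1. Quantile normalization took the median SD from 0.362 to 0.197, the median pairwise r from 0.813 to 0.282 and the range of the mean profile from 1.31 to 0.372. With 1 fraction left out these ran from 0.289 to 0.370, 0.731 to 0.827 and 0.979 to 1.31. Without H1 and S6, chosen after seeing the data, they were 0.254, 0.683 and 0.773. The median sagittal change of all probes was -0.05 log2 units and moved to 0.29 with normexp and 0.19 with the spike-in covariate. Their median horizontal change was -0.20, and 0.32 with median centring. With normexp 1 subunit was called in the coronal and 1 in the horizontal test, with 0 shared with the main setting in each. The cause of these shifts was not tested. No paired analysis was possible because equal fraction numbers are positions along different axes of different mice.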
